A study of Mus musculus with 24 samples.

Results

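The genes described here encode the machinery that fastens basal keratinocytes to the basement membrane. They were chosen by name as the rows of the table whose Ensembl gene identifier maps to Itga6, Itgb4, Itga3, Itgb1, Col17a1, Lama3, Lamb3, Plec or Dst, and all 9 were found among the 17721 genes of the table. The study profiled back skin epidermis of 24 male C57BL/6 mice, 8 weeks old, that lacked the clock activator Bmal1 (gene symbol Arntl) through a Cre recombinase under the keratin 14 promoter, here called EpiKO, with 4 animals per time point at 6 times 4 h apart from ZT0 to ZT20 (zeitgeber time, hours after lights on, under equal light and dark phases with chow freely given). They were set against wild-type (WT) epidermis, whose libraries are not samples of this series and whose values come only from the authors' fit. The keratin 14 promoter is active in basal keratinocytes, which express the genes described here, so immune cells and other cells of the epidermis that never used it keep Bmal1. The epidermis was lifted off with dispase, a protease that digests basement membrane proteins, before RNA was extracted.

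Hemidesmosomes are junctions at the base of basal keratinocytes. Integrin alpha6 beta4 (Itga6, Itgb4) and the transmembrane collagen XVII (Col17a1, also known as BP180) bind outside the cell to laminin-332, whose alpha and beta chains are encoded by Lama3 and Lamb3. Inside the cell, plectin (Plec) and the epithelial form of dystonin (Dst, also known as BPAG1 or BP230) tie the complex to the keratin filaments. Integrin alpha3 beta1 (Itga3, Itgb1) also binds laminin-332, in contacts linked to actin. Inherited loss of the hemidesmosome proteins or of laminin-332 causes blistering of the skin. Collagen XVII is also known for its part in keeping stem cells of the interfollicular epidermis and hair follicle in place.

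All values below are fitted values, since the table holds none per library: no spread between animals can be given, the depth of the libraries is unknown, and genotype cannot be told apart from any difference in how both sets of libraries were made. Levels are log2 means in the authors' deposited table. A weight is the share of support, from 0 to 1, that the authors' fit gave to a model, and a gene was assigned to a rhythm class when the largest of its 5 weights was at least 0.5. A fold height is the peak over the trough of the fitted curve. Dbp, a direct BMAL1 target, was flat in EpiKO and cycled 42.8-fold in WT in the authors' deposited table, while Arntl, listed at a mean of 9.65 in EpiKO and 9.50 in WT (log2, the authors' deposited table), counts transcript outside any deleted part as well and does not check the deletion. Between the sides 1112 genes differed by more than 4 in mean level (log2), 1067 of them lower in EpiKO, and 0 of the 9 adhesion genes were among them. Among the 433 genes with a mean level at or above that of the lowest adhesion gene, 1 differed by that much. That level averages both genotypes, so a large fall in 1 of them by itself moves a gene down and out of this set. The low count is therefore partly built in and does not show that abundant genes were spared.

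Promoter windows from RefSeq (build GRCm38.p6, the assembly also named mm10) ran from 250 bases before to 50 bases after a gene start. They were searched for 5 of the 9 genes (Dst, Itgb1, Lamb3, Col17a1 and Itga3), in 8 windows. Lama3 was left out of the search, so the counts below do not cover it. The 4 windows shown belong to genes whose fitted rhythms or means differed between the genotypes, read 5′ to 3′ on the gene's strand, with motif matches in capitals. The Dst window (chr1:34160010-34160309, plus strand) and the Lamb3 window (chr1:193301993-193302292, plus strand) are each that of a start inside the annotated gene. The other Lamb3 window searched (chr1:193301744-193302043) overlaps the one shown. The Itgb1 window is chr8:128685404-128685703 (plus strand) and the Col17a1 window chr19:47691993-47692292 (minus strand).
Dst: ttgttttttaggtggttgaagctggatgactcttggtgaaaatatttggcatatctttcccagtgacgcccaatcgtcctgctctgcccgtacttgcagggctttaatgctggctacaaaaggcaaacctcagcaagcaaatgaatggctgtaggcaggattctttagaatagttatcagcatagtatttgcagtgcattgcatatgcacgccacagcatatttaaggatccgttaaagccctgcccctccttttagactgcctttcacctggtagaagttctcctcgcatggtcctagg
Itgb1: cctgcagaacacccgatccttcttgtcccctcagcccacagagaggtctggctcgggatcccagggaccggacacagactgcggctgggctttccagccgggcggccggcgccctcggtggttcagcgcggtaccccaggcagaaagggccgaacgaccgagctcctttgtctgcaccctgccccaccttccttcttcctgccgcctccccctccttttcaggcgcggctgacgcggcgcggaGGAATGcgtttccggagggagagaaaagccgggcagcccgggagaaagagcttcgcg
Lamb3: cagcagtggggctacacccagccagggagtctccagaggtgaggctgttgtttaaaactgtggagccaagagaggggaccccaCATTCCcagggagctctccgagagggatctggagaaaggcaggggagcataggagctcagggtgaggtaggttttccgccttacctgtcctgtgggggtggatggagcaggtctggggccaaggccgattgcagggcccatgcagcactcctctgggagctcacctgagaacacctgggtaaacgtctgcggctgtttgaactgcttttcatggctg
Col17a1: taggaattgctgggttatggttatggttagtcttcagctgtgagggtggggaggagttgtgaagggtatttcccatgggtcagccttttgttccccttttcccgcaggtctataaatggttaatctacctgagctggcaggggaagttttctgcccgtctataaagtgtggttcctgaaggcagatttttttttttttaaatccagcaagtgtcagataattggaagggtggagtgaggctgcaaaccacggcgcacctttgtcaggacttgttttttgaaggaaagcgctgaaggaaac

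The motifs searched on both strands were the E-box CACGTG bound by CLOCK and BMAL1, the D-box TTANGTAA, the element AGGTCA of the REV-ERB and ROR factors, the glucocorticoid receptor palindrome (AGAACA and TGTTCT with 3 bases between), the AP-1 site TGANTCA and the TEAD site GGAATG. An E-box was in 0 of the 8 windows and in 7.15% of all 32851 windows of the reference. The D-box (2.32% of all windows), AGGTCA (16.3%) and the glucocorticoid palindrome (0.00913%) were also in 0 of the 8. The TEAD site (14.7% of all windows) was found in Itgb1 at position -7 from the start, and on the other strand in Lamb3 at position -167, where the printed letters are its reverse complement. The AP-1 site (7.81% of all windows) was found in 1 window of Itga3 that is not shown, just after a start at its base 13, and reads there on both strands. The Dst and Col17a1 windows shown held none of the 6 motifs, which says only that these letters are not in those windows. GC content was 46.0% in the Dst window, 46.3% in that of Col17a1, 59.3% in that of Lamb3 and 67.3% in that of Itgb1, against a median of 52.7% over all windows.

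The first question was whether the adhesion genes kept a daily rhythm without BMAL1 in the epidermis. Of the 9 genes, 2 were given a shared rhythm (Itga6 and Lama3), 1 a rhythm in EpiKO only (Itgb1), 1 a rhythm in WT only (Lamb3), 1 different rhythms (Dst) and 2 no rhythm (Itgb4 and Plec). Itga3 and Col17a1 had no weight of 0.5 or more and stayed unassigned. Over all genes 16.7% had the same rhythm, 4.31% a rhythm in EpiKO only, 8.41% a rhythm in WT only, 2.65% different rhythms and 56.7% no rhythm, with 11.3% unassigned. Genes of this abundance were rhythmic more often: among the 433 genes at or above the level of the lowest adhesion gene, 32.8% had the same rhythm, 3.46% a rhythm in EpiKO only, 11.8% a rhythm in WT only, 2.77% different rhythms and 38.1% no rhythm. With so few members in each class, these counts describe the genes one by one and set no class apart.

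**Figure D1:**
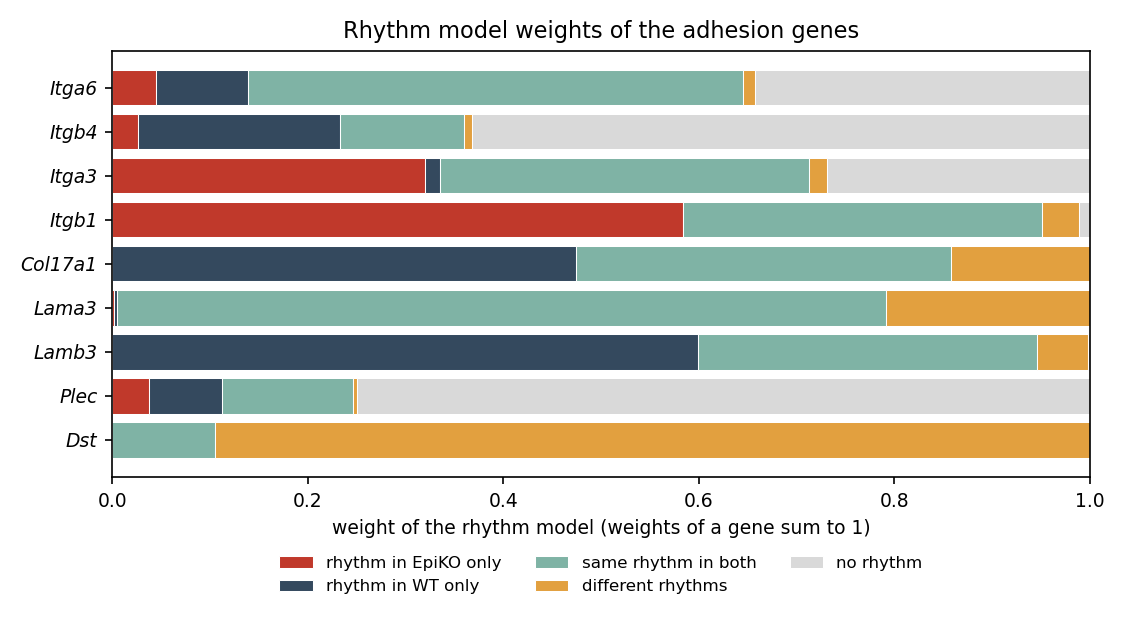
Weight of each rhythm model (x axis, weights of a gene sum to 1) for the 9 adhesion genes (y axis). Dst was given almost entirely to different rhythms, while the bar of Col17a1 is split between a rhythm in WT only (0.475), the same rhythm (0.383) and different rhythms (0.142).

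Adding the weights of all models that hold a rhythm in a genotype separates what the fit resolved from what it did not. A summed weight of at least 0.9 for a rhythm in EpiKO was reached by 3 of the 9 genes (Dst, Lama3 and Itgb1), against 14.2% of all genes and 22.2% of the 433 abundant genes. For a rhythm in WT it was reached by 4 of the 9 (Dst, Col17a1, Lamb3 and Lama3), against 20.2% of all genes and 35.8% of the abundant ones. Dst and Lama3 reached it in both genotypes. The summed weight for a rhythm in EpiKO was 0.525 for Col17a1 and 0.40 for Lamb3, so whether either cycled there was not resolved.

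Dst (ENSMUSG00000026131; chromosome 1, 33908225 to 34308661, plus strand) had the largest rhythm of the group. Its fitted peak was 1.51-fold its trough in EpiKO and 2.18-fold in WT, with a peak at ZT9.70 in EpiKO and at ZT9.40 in WT, in the authors' deposited table. The weight for different rhythms was 0.895 and that for the same rhythm 0.105 in the authors' deposited table. On the log2 scale the EpiKO height was 0.528 of the WT height, against a median of 0.752 over the 470 genes with different rhythms, and 340 of those 470 had a lower height in EpiKO. The peaks of Dst lay 0.299 h apart, where the median gap in that class was 6.70 h in either direction and 12 of the 470 genes had a gap under 1 h. For Dst, then, the fitted curves differed in height and mean level while the peak times nearly coincided.

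The curves of Dst came closest in the light phase and were farthest apart in the dark phase. At the sampled times the fitted level was 14.72, 14.99, 15.24, 15.21, 14.94 and 14.70 in EpiKO and 13.95, 14.48, 14.91, 14.82, 14.30 and 13.86 in WT (log2, ZT0 to ZT20), computed from the coefficients of the authors' deposited table. EpiKO was above WT at each of these 6 times, by 1.25-fold at ZT8 and by 1.79-fold at ZT20. The fitted peak was 1.24-fold and the fitted trough 1.80-fold higher in EpiKO. Dst has several starts and its exons span 41.2 kb in all, so the value sums the epithelial form and any other form that is transcribed. Of its exon bases 3.63% lie opposite exons of A930005N03Rik and Gm26788, and 5.33% of the 51-base windows of its transcripts occur in transcripts of other genes.

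**Figure D2:**
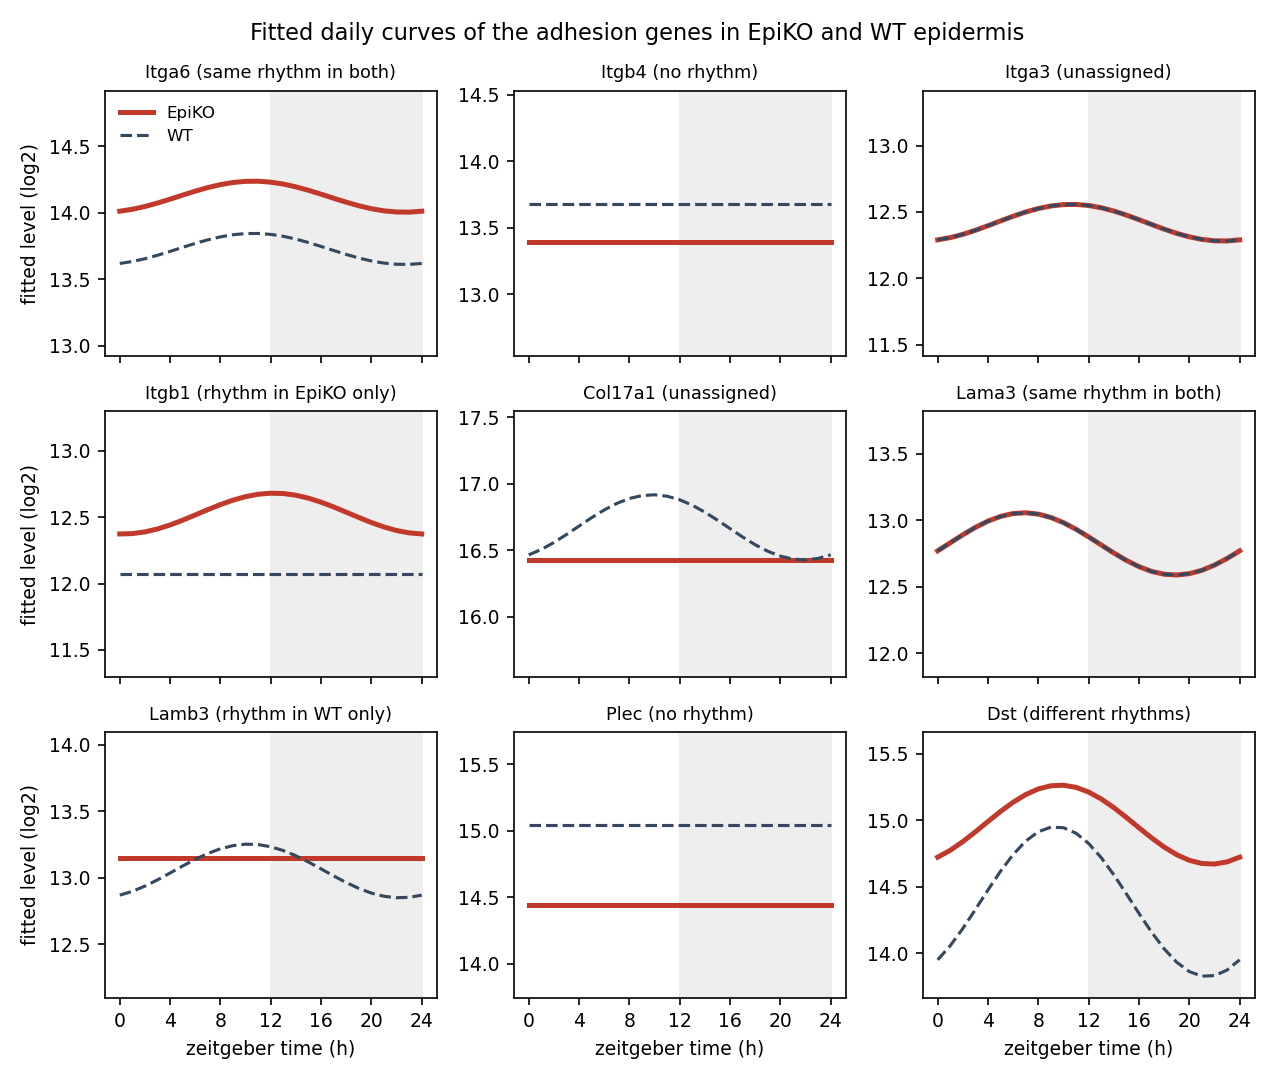
Fitted level (y axis, log2, each panel spanning the same range) over zeitgeber time (x axis, h) for the 9 adhesion genes in EpiKO (solid red) and WT (dashed blue), with the dark phase shaded. Each curve is that of the model with the largest weight, also for the unassigned Itga3 and Col17a1; the Dst curves differ in height and level, and those of Lama3 coincide because 1 curve and 1 mean were fitted.

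The genes whose pair of fitted curves was most like that of Dst, by the root mean squared difference over 24 h in both genotypes after each gene was centred on its own mean over both, were Fhod3 (0.121), Ctso (0.122) and Smim1 (0.123, all log2). Each of these 3 had the same rhythm in both, with heights of 1.77-fold for Fhod3, 1.66-fold for Ctso and 1.67-fold for Smim1 and peaks from ZT8.85 to ZT9.64 in the authors' deposited table. They therefore resemble Dst in peak time and in a higher EpiKO mean, and not in the unequal heights.

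Col17a1 (ENSMUSG00000025064; chromosome 19, 47646344 to 47692094, minus strand) was the most abundant gene of the group, at the 99.97th percentile of all genes. The model with the largest weight gave it a 1.40-fold rhythm in WT with a peak at ZT9.85 and a flat level in EpiKO in the authors' deposited table. Its summed weight for a rhythm in WT rounds to 1.00, but that model had a weight of 0.475, just under the limit, and the same rhythm in both had 0.383 in the authors' deposited table. Under the first model the EpiKO level of 16.43 (log2, the authors' deposited table) equals the WT trough of 16.43 and lies below the WT peak of 16.92. None of its exon bases overlap exons of another gene and none of its 51-base windows occur in annotated transcripts of other genes.

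Of the laminin-332 chains, Lama3 (ENSMUSG00000024421; chromosome 18, 12333819 to 12583013, plus strand) had the same 1.38-fold rhythm in both genotypes, with a peak at ZT6.86 and weight 0.787 (the authors' deposited table). Lamb3 (ENSMUSG00000026639; chromosome 1, 193207699 to 193343878, plus strand) peaked later in WT, at ZT10.3, with 1.32-fold, and was fitted as flat in EpiKO, at weight 0.599 (the authors' deposited table). For Lamb3 the same rhythm in both retained a share of 0.347 (the authors' deposited table), so the alpha and beta chains were not shown to differ in whether they cycled in EpiKO.

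Where the integrin genes were fitted with a rhythm, its height stayed below that of the laminin chains and Dst. Itga6 (ENSMUSG00000027111; chromosome 2, 71745616 to 71858416, plus strand) was assigned the same 1.18-fold rhythm in both genotypes, with a peak at ZT10.6 and weight 0.506, just over the limit (the authors' deposited table). No rhythm kept a share of 0.342 for Itga6 (the authors' deposited table). Its summed weight for a rhythm was only 0.563 in EpiKO and 0.613 in WT. Its partner Itgb4 (ENSMUSG00000020758; chromosome 11, 115974709 to 116008412, plus strand) was assigned no rhythm, at weight 0.632 (the authors' deposited table). Itgb1 (ENSMUSG00000025809; chromosome 8, 128685654 to 128733200, plus strand) had a 1.24-fold rhythm in EpiKO with a peak at ZT12.3 and none in WT, at weight 0.584 (the authors' deposited table). Here too the same rhythm in both kept a share of 0.367 (the authors' deposited table). Its partner Itga3 (ENSMUSG00000001507; chromosome 11, 95044474 to 95076801, minus strand) was split between the same rhythm (0.378), a rhythm in EpiKO only (0.320) and no rhythm (0.268) in the authors' deposited table. Plec (ENSMUSG00000022565; chromosome 15, 76170974 to 76232574, minus strand) was assigned no rhythm, at weight 0.750 (the authors' deposited table), unlike the other plakin of the hemidesmosome, Dst.

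The peaks fell between the middle of the light phase and the start of the dark phase. Of the 4 genes assigned a class with a rhythm in EpiKO, 2 peaked from ZT8 to before ZT12 (15.1% of 4188 such genes), 1 in the 4 h before (27.2%) and 1 in the 4 h after (10.7%). Of the 4 with a rhythm in WT, 3 peaked from ZT8 to before ZT12 (17.6% of 4914 such genes) and 1 in the 4 h before (19.4%). Itga6, Lama3 and Dst are counted in both genotypes, and the first 2 of these have 1 curve for both, so their peak times could not differ. With a median height of 1.28-fold over genes rhythmic in EpiKO and 1.29-fold over those rhythmic in WT, Dst and Lama3 were above the median in both genotypes and Itga6 below it.

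**Figure D3:**
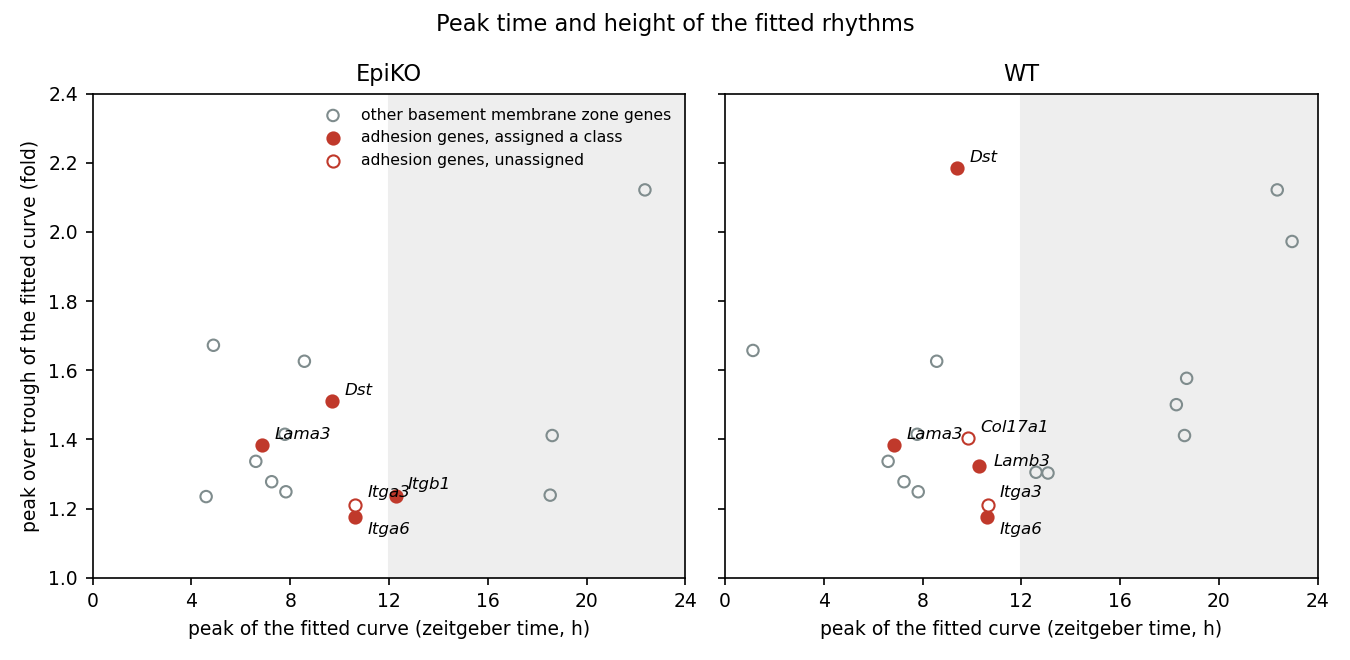
Peak over trough of the fitted curve (y axis, fold) against peak time (x axis, zeitgeber time, h; dark phase shaded) in EpiKO (left) and WT (right). Filled red points are adhesion genes assigned a class, open red points those left unassigned, and grey circles other basement membrane zone genes assigned a rhythm; the red points lie between ZT6.86 and ZT12.3.

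The next question was how mean levels compared. By the weight of the model with unequal means, 4 of the 9 genes were called higher in EpiKO (32.7% of all genes) and 3 lower (37.4% of all genes). Among the 433 abundant genes 29.8% were higher and 50.1% lower. Called in either direction were 70.1% of all genes and 79.9% of the 433 abundant genes, so the 7 calls of 9 are near the background, and the median difference over the 9 genes was 0, as over all genes. The called members had a median absolute difference of 0.39 (log2), against 0.41 for called genes among the 433. The number of calls therefore says little of these genes, and the directions differed between partners.

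Dst was higher in EpiKO, with a mean of 14.97 in EpiKO and 14.39 in WT (log2, the authors' deposited table), a difference of 0.58 or 1.49-fold. Itgb1 was higher too, at 12.53 in EpiKO and 12.07 in WT (log2, the authors' deposited table), a difference of 0.45 or 1.37-fold. Itga6 had 14.12 in EpiKO and 13.73 in WT (log2, the authors' deposited table), a difference of 0.39 or 1.31-fold. The fourth, Lamb3, had 13.15 in EpiKO and 13.05 in WT (log2, the authors' deposited table), a difference of 0.10 with a weight of 0.603 for unequal means. Its fitted curve in EpiKO lay below that in WT at ZT8 (-0.07) and ZT12 (-0.08, log2) and above it at the other sampled times.

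Lower in EpiKO were Plec, Itgb4 and Col17a1. Plec had a mean of 14.44 in EpiKO and 15.05 in WT (log2, the authors' deposited table), a difference of -0.61 and the largest of the 9 in size. Itgb4 had 13.39 in EpiKO and 13.68 in WT (log2, the authors' deposited table), a difference of -0.29. Col17a1 had 16.43 in EpiKO and 16.67 in WT (log2, the authors' deposited table), a difference of -0.25. Lama3 and Itga3 were given 1 mean for both genotypes, 12.82 for Lama3 and 12.42 for Itga3 (log2, the authors' deposited table). With differences centred on the median of called genes, a setting added after the data were seen, Lamb3 was at 0.24, Itgb4 at -0.14 and Col17a1 at -0.10 (log2). The weights for unequal means were 1.00 after rounding for the 6 called genes other than Lamb3.

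In both the integrin alpha6 beta4 pair and the plakins, 1 gene was higher in EpiKO and the other lower, and a ratio within a pair does not depend on how the libraries were scaled. Itga6 exceeded Itgb4 by 0.73 in EpiKO and 0.05 in WT (log2), a difference of 0.68 in the ratio. Dst over Plec was 0.53 in EpiKO and -0.66 in WT (log2), a 2.28-fold higher ratio in EpiKO, with Dst above Plec in EpiKO and below it in WT. For integrin alpha3 beta1, where Itga3 was given 1 mean and the change is that of Itgb1 alone, Itga3 over Itgb1 was -0.11 in EpiKO and 0.35 in WT (log2), a ratio in EpiKO that was 0.730 of that in WT. These ratios have no error, since none is given for either mean. Of the exon bases of Itgb4, 7.66% lie opposite exons of B230344G16Rik, and 4.08% of its windows and 5.26% of those of Itga6 occur in transcripts of other genes, so reads from other genes could enter these counts; the strand setting used was not given in the sources used here.

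Set per kilobase of exon, the level of Col17a1 was far above the others, at 13.84 in EpiKO and 14.08 in WT (log2 level per kb). Next in EpiKO were Itga6 at 10.95 in EpiKO and 10.55 in WT, Itgb4 at 10.58 in EpiKO and 10.87 in WT, and Itgb1 at 10.50 in EpiKO and 10.04 in WT (log2 level per kb). Lamb3 had 10.42 in EpiKO and 10.33 in WT, Plec 10.26 in EpiKO and 10.87 in WT, and Itga3 9.91 in both genotypes (log2 level per kb). At the low end stood Dst, at 9.60 in EpiKO and 9.02 in WT, and Lama3, at 9.40 in both genotypes (log2 level per kb). The exon length of each gene takes in all its annotated forms. That of Dst covers forms that keratinocytes may not use, which lowers its value per kb. The same could hold for other genes here, Lama3 among them. Which neighbours in this order differ beyond the spread between animals cannot be said.

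**Figure D4:**
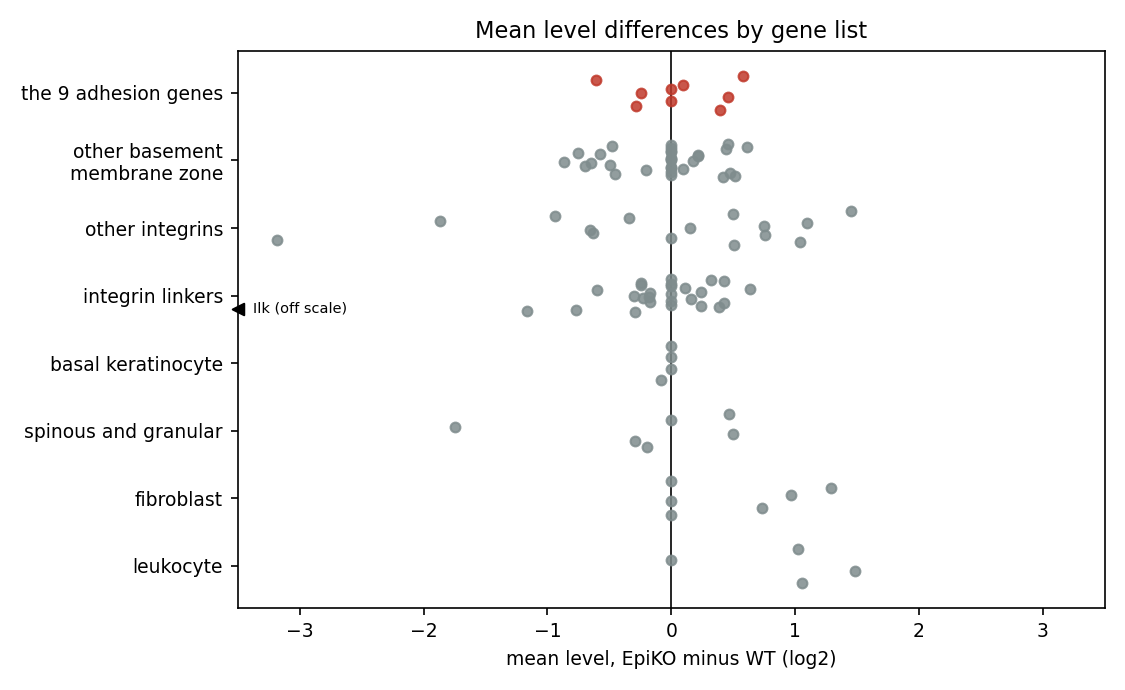
Mean level in EpiKO minus that in WT (x axis, log2) for each gene (point) of the lists on the y axis; points at 0 were given 1 mean for both genotypes, and Ilk, at -8.01, is off the scale. The 9 adhesion genes (red) spread from -0.61 to 0.58, while 3 of the 4 leukocyte markers lie above 1.

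Other genes of the basement membrane zone were described from a list of 30, all in the table. Of these, 7 shared a rhythm (16.7% of all genes), 4 a rhythm in WT only (8.41%), 1 a rhythm in EpiKO only (4.31%), 2 different rhythms (2.65%), 10 no rhythm (56.7%) and 6 were unassigned (11.3%). The laminin alpha5 chain Lama5 (1.25-fold, ZT7.82) and the collagen IV chains Col4a5 (1.34-fold, ZT6.61) and Col4a6 (1.41-fold, ZT7.78) shared a rhythm in the authors' deposited table, and these were named after their values were seen. Smoc2, a matricellular protein of basement membranes, shared one of 1.63-fold with a peak at ZT8.57 in the authors' deposited table. These 4 peaked in the light phase, as Lama3 did, whereas the laminin beta1 chain Lamb1 shared a 1.41-fold rhythm with a peak at ZT18.6, in the dark phase, in the authors' deposited table. Lamb1 too was named after its value was seen. Fbln1, the matrix protein fibulin 1, shared a 2.12-fold rhythm with a peak at ZT22.4 in the authors' deposited table, and Lama4, a laminin chain of blood vessels, cycled 1.97-fold at ZT23.0 in WT only in the authors' deposited table. Frem2, a basement membrane protein of the Fraser complex, was assigned different rhythms of 1.67-fold at ZT4.89 in EpiKO and 1.66-fold at ZT1.13 in WT in the authors' deposited table.

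In mean level 10 of the 30 were called higher in EpiKO (32.7% of all genes) and 9 lower (37.4%). The median difference of 0 again follows from the genes given 1 mean. The largest differences were those of Col4a3 (-0.87), Frem1 (-0.75) and the perlecan gene Hspg2 (-0.70, all log2, EpiKO minus WT). Col4a3 stood at a low level, 3.61 in EpiKO and 4.48 in WT (log2, the authors' deposited table). Frem1 had a weight for unequal means of only 0.627.

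Among 15 other integrin subunits, 2 had the same rhythm (16.7% of all genes), 1 a rhythm in WT only (8.41%), 7 none (56.7%) and 5 were unassigned (11.3%). Itgb6, a subunit of epithelial cells, shared a 1.41-fold rhythm with a peak at ZT10.4 in the authors' deposited table, close to that of Itga6. Itga1, a collagen-binding subunit, shared one with a peak at ZT14.1, and Itga5, the alpha subunit of the fibronectin receptor, cycled 1.53-fold at ZT15.9 in WT only, in the authors' deposited table. Of these subunits 8 were called higher in EpiKO (32.7% of all genes) and 6 lower (37.4%). Itgb8 differed by 1.45, Itgb3 by -1.87 and Itga4 by -3.18 (log2, EpiKO minus WT), at lower levels than the 9 adhesion genes.

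Of 27 integrin linker and focal adhesion genes, 4 had the same rhythm (16.7% of all genes), 4 a rhythm in WT only (8.41%), 1 a rhythm in EpiKO only (4.31%), 15 none (56.7%) and 3 were unassigned (11.3%). Tns4, which encodes a tensin that binds integrin tails, cycled 1.98-fold in WT only with a peak at ZT9.44, the time of the Dst peak, in the authors' deposited table. Macf1, a spectraplakin and close relative of Dst, cycled 1.79-fold in WT only with a peak at ZT0.597 in the authors' deposited table, on the other side of the day. The adaptor gene Bcar1 shared a 1.58-fold rhythm with a peak at ZT9.67, and the actinin gene Actn1 cycled 1.44-fold at ZT18.1 in WT only, in the authors' deposited table. Mean levels were called higher in EpiKO for 9 (32.7% of all genes) and lower for 12 (37.4%), with Vcl at -0.77 and Tln2 at -1.17 (log2, EpiKO minus WT). Ilk, the integrin-linked kinase gene, had 2.10 in EpiKO and 10.11 in WT (log2, the authors' deposited table), a difference of -8.01, and 89.7% of its exon bases lie opposite exons of Rrp8 and Taf10. Of the exon bases of Vcl, 25.5% lie opposite exons of Ap3m1. The part of these overlaps in the differences was not tested.

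Among 19 matrix and shedding proteases and their inhibitors, 5 had the same rhythm (16.7% of all genes), 3 a rhythm in WT only (8.41%), 1 different rhythms (2.65%), 7 none (56.7%) and 3 were unassigned (11.3%). Mmp2, a gelatinase, shared a 1.41-fold rhythm with a peak at ZT10.6 in the authors' deposited table. Mmp9 cycled 2.70-fold in WT only at ZT0.659, and Mmp3 1.84-fold at ZT3.51 in EpiKO and 4.37-fold at ZT20.8 in WT, in the authors' deposited table. Mmp13 was assigned a rhythm in WT only at a mean of 0.62 (log2, the authors' deposited table), near the bottom of the table, so its fitted height is not given. In mean level 6 were called higher in EpiKO (32.7% of all genes) and 4 lower (37.4%), with Mmp9 at 1.20, the inhibitor gene Timp3 at -0.96 and Tll1 at -3.39 (log2, EpiKO minus WT). Tll1 stood at a low level, 2.16 in EpiKO and 5.55 in WT (log2, the authors' deposited table). Of the exon bases of Timp3, 21.3% lie opposite exons of Syn3, and the part of that overlap in its difference was not tested.

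Of 12 clock genes 7 had a rhythm in WT only (8.41% of all genes), 4 different rhythms (2.65%) and 1 the same rhythm (16.7%). Markers of cell types were read beside the mean levels, where 32.7% of all genes were called higher in EpiKO and 37.4% lower. Fibroblasts and blood vessel endothelium belong to the dermis below the epidermis, and dermal carry-over was not tested. Of 4 basal keratinocyte markers, Krt14, Krt15 and Trp63 were given 1 mean for both genotypes and Krt5 was called lower in EpiKO, at 17.73 in EpiKO and 17.82 in WT (log2, the authors' deposited table). Krt15 had a 1.28-fold rhythm in WT only with a peak at ZT11.1 in the authors' deposited table. The weight for unequal means of Krt5 was only 0.523. Col17a1 over Krt5 in EpiKO was 0.896 of the ratio in WT, and Col17a1 over Krt14 was 0.844 of it. Of 6 measured spinous and granular markers 2 were called higher and 3 lower, with Krtdap at 0.50, Ivl at 0.46, Krt1 at -0.20, Krt10 at -0.29 and Sbsn at -1.74 (log2, EpiKO minus WT). Of 4 measured leukocyte markers 3 were higher in EpiKO, Cd207 by 1.49, Ptprc by 1.06 and Cd74 by 1.02, and of 6 fibroblast markers 3, Lum by 1.29, Dcn by 0.97 and Col1a2 by 0.74 (log2). The 3 endothelial markers were higher in EpiKO at low levels, up to 3.42 in EpiKO and 2.91 in WT for Pecam1 (log2, the authors' deposited table). Summed over the list, the leukocyte markers had 10.89 in EpiKO and 9.91 in WT, the fibroblast markers 9.79 in EpiKO and 9.48 in WT, and the endothelial markers 3.80 in EpiKO and 3.08 in WT (log2 of summed fitted levels). The 4 melanocyte markers, of which 3 shared a rhythm, summed to 8.43 in EpiKO and 8.57 in WT, the basal keratinocyte markers to 18.73 in EpiKO and 18.78 in WT, and the spinous and granular markers to 18.22 in EpiKO and 18.56 in WT (log2). In bulk epidermis, more cells of a type and more RNA per cell cannot be told apart, and the part of other cell types in the mean levels of the adhesion genes was not tested.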

How the data were processed

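RNA-seq libraries of epidermis from 24 EpiKO mice were the samples, and the measurements used were 1 table in which the authors had compared daily rhythms in EpiKO and WT epidermis with dryR, per the series design text. Per the labels' protocols, libraries came from a stranded kit for polyadenylated RNA, read as single reads of 51 bases. Per the submitters' processing notes, mm10, edgeR, featureCounts 1.6.0, HISAT2 2.2.1, Trimmomatic 0.36 and SAMtools 1.3.1 were used, in an order and with settings not given in these sources. For every gene the authors deposited a score, between 0 and 1, per model (5 of rhythm, 2 of the mean), the weight of the model under the Bayesian information criterion. The mean levels that the authors deposited are log2 values, with a scaling between libraries not given in the sources used here. Heights, coefficients and peak times are empty where the model has no rhythm, and a height is peak to trough in log2. The columns of the side that is not WT were taken as EpiKO. Which model is which was read from which sides had coefficients.

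Classes, sums of weights, folds as 2 to the power of log2 values, and curves from the coefficients were computed here. There are no values per library, so no test over samples was run, replicates could not be compared and the depth and its precision are unknown. The genes and lists were chosen with earlier results of these data known, and each list is therefore given by its counts, beside the shares over all genes, with no test. Named genes are the 9, and from each list up to 4 with the largest height among rhythmic classes and up to 3 with the largest called mean difference; some genes of the clock and marker lists that the rule takes are not named. The result of 1 gene of the lists is not reported here. Symbols matched 17720 of 17721 identifiers. Positions and overlaps are from GENCODE mouse M21 (assembly mm10). The class assignment, curve and motif code returned the answers planted in simulated input, which checks the code alone and not the authors' fits. Alternatives were minimum weights of 0, 0.4 and 0.8, a minimum height of 0.25 (log2), a weight of 0.8 or a minimum difference of 0.5 for means, centring, other backgrounds and motifs before the start alone; added after seeing the data were the summed weights of at least 0.9, centring on called genes and the background of 433 abundant genes. Python 3.11.15, NumPy 2.4.6, pandas 2.3.3 and Matplotlib 3.10.9 were used.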

Additional observations from a re-analysis of the deposited data

How the results depend on the processing

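With no minimum weight, Col17a1 joined the genes with a rhythm in WT only, giving 2, Itga3 joined those with the same rhythm, and 0 stayed unassigned. With a minimum of 0.4 the rhythm in WT only likewise had 2 genes, and 1 was unassigned. With a minimum of 0.8 Dst alone was assigned, leaving 8 unassigned and 0 in each of the classes same rhythm, EpiKO only, WT only and no rhythm. A minimum height of 0.25 (log2) left 1 gene with the same rhythm, Lama3, since the height of Itga6 is below it. With a minimum difference of 0.5 (log2), 1 mean was called higher in EpiKO (Dst) and 1 lower (Plec). A weight of 0.8 for unequal means removed the call of Lamb3 (3 higher, 3 lower). Centring on the median of all genes, which is 0, changed nothing, and centring on that of called genes (-0.14, log2) reversed none of the 7 called differences, giving Dst 0.72, Itgb1 0.60, Itga6 0.54, Lamb3 0.24, Col17a1 -0.10, Itgb4 -0.14 and Plec -0.46; this moved Lamb3, Col17a1 and Itgb4, whose differences as deposited were 0.10, -0.25 and -0.29, by more than 1.5 times. The AP-1 match in Itga3 lies after the start and was lost when the part before it was searched alone. The classes rest on fitted weights without the spread between animals, and weights of 0.506 to 0.599, as for Itga6, Itgb1 and Lamb3, leave other models open. No paired analysis was possible because the table holds no values per library, and for the same reason no replicate could be left out.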
